A study of Mus musculus with 26 samples.

Results

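Matrix metalloproteinases and the tissue inhibitors that bind them were followed in the left ventricle of hypertensive and normotensive mice. The members were the 9 genes Mmp2, Mmp3, Mmp9, Mmp14, Mmp15, Timp1, Timp2, Timp3 and Timp4, found by gene symbol among 40413 genes of the deposited count table. All 9 were among the 15543 genes with enough counts to be tested. Polyadenylated RNA had been sequenced from BPH/2J mice, an inbred strain with high blood pressure, and from BPN/3J mice, the matched strain with normal pressure. Mice of both strains had received Cmpd17b, a small-molecule agonist of formyl peptide receptors, intraperitoneally at 50 mg/kg/day for 28 days, or vehicle. The 4 groups were BPH/2J mice on Cmpd17b (BPH_Cmpd17b, n = 6), BPH/2J mice on vehicle (BPH_vehicle, n = 7), BPN/3J mice on Cmpd17b (BPN_Cmpd17b, n = 5) and BPN/3J mice on vehicle (BPN_vehicle, n = 7). A seventh library labelled BPH_Cmpd17b was left out, for the reason given below. The mice were adults according to the study's design text, and no age is given in the sources used here.

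Metalloproteinases are zinc enzymes that are made as inactive precursors and cut collagens, proteoglycans, basement membrane and other matrix proteins once activated. Mmp2 and Mmp9 encode the gelatinases, Mmp3 encodes stromelysin-1, which cleaves many matrix proteins and activates other precursors, and Mmp14 and Mmp15 encode enzymes anchored in the cell membrane. The 4 TIMP proteins bind the catalytic site of active enzymes. TIMP2 also takes part in the activation of the MMP2 precursor by MMP14, TIMP3 is held in the matrix, and TIMP4 is abundant in heart. In the pressure-loaded heart the balance of these enzymes and inhibitors is studied as part of matrix turnover and fibrosis. RNA levels do not measure enzyme activity, since activation and inhibition act on the proteins.

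The promoter stretches are shown for 3 members that stood out by their RNA levels. Mmp3 had the largest strain difference among the members, and Mmp14 and Timp1 stood high together in 1 library. A link between these reference sequences and the RNA levels was not tested. Each line gives the 250 bases before the gene's start, 5′ to 3′ on the gene's own strand, from RefSeq on GRCm38.p6, and 7 of the 9 members had an entry in the promoter table. The windows lie at chr9:7445572-7445821 on the plus strand for Mmp3, chr14:54431348-54431597 on the plus strand for Mmp14 and chrX:20869916-20870165 on the plus strand for Timp1. Capitals mark matches, on either strand, to the AP-1 motif TGANTCA, the TATA box TATAAA or the GC box GGGCGG.
Mmp3: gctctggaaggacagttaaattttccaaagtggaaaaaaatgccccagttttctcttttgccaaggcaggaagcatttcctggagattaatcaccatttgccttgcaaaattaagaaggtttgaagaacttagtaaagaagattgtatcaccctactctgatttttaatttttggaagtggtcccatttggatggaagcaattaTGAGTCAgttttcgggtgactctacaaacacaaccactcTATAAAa
Mmp14: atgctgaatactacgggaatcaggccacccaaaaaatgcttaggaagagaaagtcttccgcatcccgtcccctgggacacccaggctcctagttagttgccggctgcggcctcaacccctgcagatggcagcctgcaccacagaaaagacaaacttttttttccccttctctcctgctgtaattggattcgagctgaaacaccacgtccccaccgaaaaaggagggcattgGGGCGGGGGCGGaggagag
Timp1: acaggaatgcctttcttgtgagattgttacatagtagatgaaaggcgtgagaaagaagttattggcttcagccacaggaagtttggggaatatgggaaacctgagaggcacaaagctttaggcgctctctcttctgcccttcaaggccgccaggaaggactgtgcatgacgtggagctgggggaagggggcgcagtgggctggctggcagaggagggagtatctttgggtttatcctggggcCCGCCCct
The Mmp3 window held TGANTCA between 46 and 40 bases before the start and TATAAA between 7 and 2 bases before it. Among the 7 members with an entry, Mmp3 was the member with a match to either. Of all 32851 promoter windows of this length in the table, 6.75% held TGANTCA and 12.4% held TATAAA. Mmp14 held 2 GC boxes side by side and Timp1 held 1, a motif that occurred in 32.7% of the windows, and these motifs do not overlap with the others in the sequences shown. A match describes letters and not a bound site.

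The 25 libraries used held 25476128 to 48648200 counts each, and mitochondrial genes took 26.2% to 38.7% of them. The left-out library, labelled BPH_Cmpd17b replicate 7, had 16.3 unscaled CPM (a gene's counts scaled to a common library total) of the ventricular myosin gene Myh6, against 13568 to 22901 CPM in the others. Its 8 kidney markers summed to 34359 CPM, against 1.90 to 155.6 CPM elsewhere. The labels put 20 of the 25 libraries in batch 1 and 5 in batch 2, with 1 batch 2 library in BPH_Cmpd17b, 2 in BPH_vehicle, 2 in BPN_vehicle and none in BPN_Cmpd17b. A pair of libraries stood apart from their groups in several members: BPH_Cmpd17b replicate 6, of batch 2, and BPN_vehicle replicate 7, of batch 1, which also had the lowest quality weights of limma voom, 0.33 and 0.0799. Results of the members that change without them are given both ways, and those of the gene lists where stated, in fits chosen after seeing the data. Values below are CPM scaled by the trimmed mean of M-values (TMM). Differences are log2 estimates ± SE from edgeR's quasi-likelihood test with a batch term. A gene is called at a p under 0.05 after Benjamini-Hochberg adjustment over all genes tested. Libraries count as individual mice, and in whole ventricle fewer cells of a type and less RNA per cell cannot be told apart.

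Per kilobase of transcript, Timp3 had the highest mean level and Mmp3 and Mmp9 the lowest. Lengths were those of the longest principal transcript in the GENCODE M21 annotation, which may differ from the annotation behind the counts. Timp3 led with 33.1 ± 1.99 CPM per kb in BPH_vehicle and 32.3 ± 8.12 in BPN_vehicle (SD, n = 7 each). Timp2 followed with 19.5 ± 1.44 in BPH_vehicle and 19.6 ± 1.17 CPM per kb in BPN_vehicle. Mmp15 had 16.6 ± 1.71 and Mmp2 15.6 ± 2.47 CPM per kb in BPH_vehicle. The ranges of Timp2 and Mmp15 over the libraries overlapped there, as did those of Mmp15 and Mmp2. Overlap between genes in this paragraph is of such ranges. It does not decide their order, since genes were not compared within the same library. Mmp14 had a lower mean, 11.4 ± 2.17 CPM per kb in BPH_vehicle and 9.11 ± 2.83 in BPN_vehicle. Its highest library overlapped with the lowest of Mmp2 in both, at 13.9 against 12.6 CPM per kb in BPH_vehicle and 14.97 against 11.8 CPM per kb in BPN_vehicle. Timp4, with 3.94 ± 0.787, and Timp1, with 3.19 ± 0.821 CPM per kb in BPH_vehicle, overlapped too. Mmp3 and Mmp9 closed the order. The highest Mmp3 library, at 2.10, overlapped with the lowest of Timp1, at 1.65 CPM per kb, in BPH_vehicle. In BPH_vehicle Mmp3 had 1.27 ± 0.514 and Mmp9 0.253 ± 0.0954 CPM per kb, with no overlap between the 2 genes. In BPN_vehicle Mmp9, with 0.103 ± 0.0399, stood above the mean of Mmp3, with 0.0446 ± 0.0661 CPM per kb, and the libraries overlapped.

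**Figure D1:**
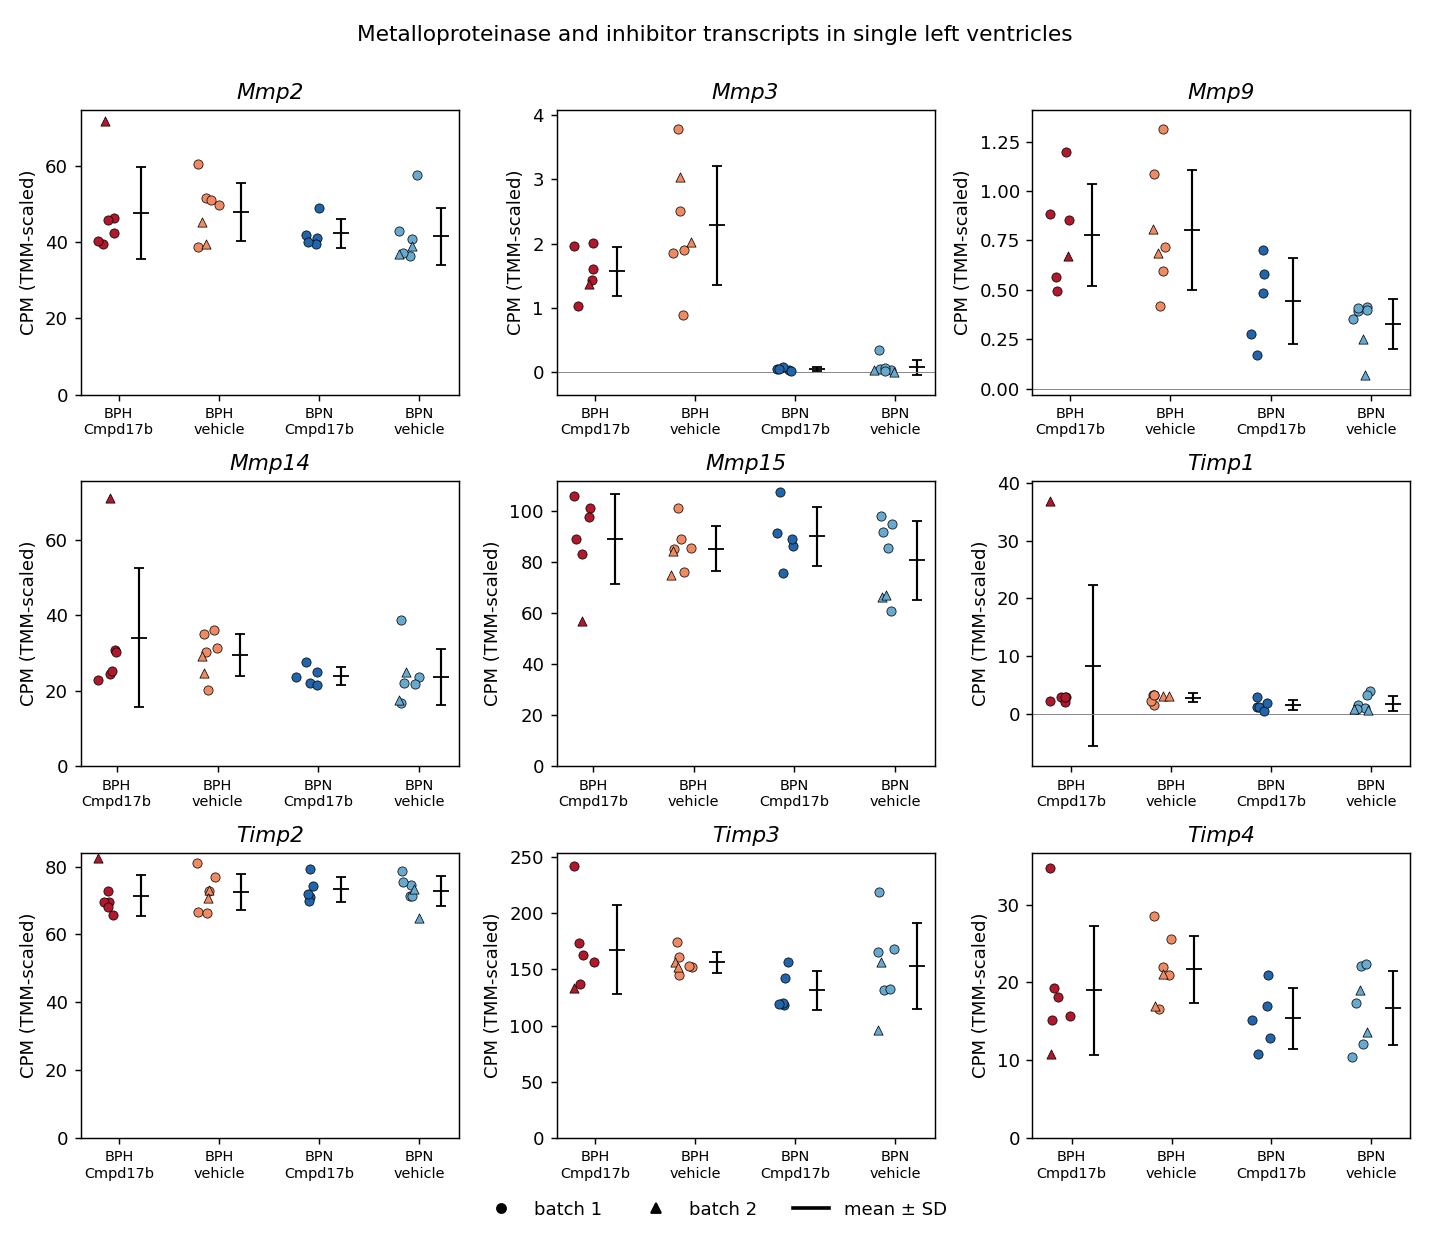
TMM-scaled CPM of each of the 9 genes in 25 single left ventricles, by group, with circles for batch 1, triangles for batch 2 and bars for the mean ± SD. Mmp3 lies between 0.894 and 3.78 CPM in every BPH/2J library and at or under 0.346 CPM in every BPN/3J library, and 1 triangle in BPH_Cmpd17b stands apart in Mmp2, Mmp14 and Timp1.

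The comparison of vehicle-treated strains asked how the enzymes and inhibitors differ between the hypertensive and the normotensive ventricle without the drug. Mmp3 and Mmp9 were higher in BPH/2J, while Mmp2, Mmp14, Mmp15 and the 4 TIMP genes were not called. That is 2 of the 9 members, where 18.9% of all genes tested were called, 9.16% higher and 9.73% lower. Mmp3 had 0.894 CPM in the lowest, 2.03 in the median and 3.78 in the highest BPH_vehicle library. In BPN_vehicle it had 0 CPM in the lowest, 0.0353 in the median and 0.346 in the highest library. All 7 BPH_vehicle libraries lay above all 7 BPN_vehicle libraries, a separation that 6.36% of the genes tested showed. The means were 2.29 ± 0.926 CPM in BPH_vehicle and 0.0804 ± 0.119 CPM in BPN_vehicle (SD, n = 7 each), a log2 difference of 4.76 ± 0.43 (adjusted p = 1.53e-09, edgeR), or 27.1-fold with a 95% interval from 14.6-fold to 50.2-fold.

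The Mmp3 counts behind these values were low in BPN/3J. They summed to 572 over the 7 BPH_vehicle libraries and to 18 over the 7 BPN_vehicle libraries, and 11 of the 18 came from BPN_vehicle replicate 7. Without that library the log2 difference was 5.81 (adjusted p = 1e-12, edgeR). It was 4.34 in batch 1 alone with an adjusted p of 4.24e-07, and batch 2 alone gave 6.85 with an adjusted p of 0.000267, and the gene stayed called in all 25 alternatives computed for this comparison. The size of so large a ratio over so few counts is loosely bounded, as its interval shows.

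Mmp9, the gelatinase carried by neutrophils and macrophages among other cells, was the second member called. It had 0.420 CPM in the lowest, 0.715 in the median and 1.31 in the highest BPH_vehicle library, against 0.0701, 0.394 and 0.416 CPM in BPN_vehicle. The groups did not overlap, although the lowest BPH_vehicle and the highest BPN_vehicle library differed by little. The log2 difference was 1.32 ± 0.33 (adjusted p = 0.00377, edgeR), from means of 0.804 ± 0.303 CPM in BPH_vehicle and 0.328 ± 0.127 CPM in BPN_vehicle (SD, n = 7 each). Batch 1 alone gave 1.07 with an adjusted p of 0.0482, and batch 2 alone gave 2.20 with an adjusted p of 0.107, which ended the call. Libraries held 16 to 65 counts of Mmp9 in BPH_vehicle and 2 to 16 counts in BPN_vehicle. Of the 8 neutrophil markers 4 could be tested, with adjusted p between 0.352 and 0.533 by edgeR. The 8 summed to 4.52 to 9.47 CPM in BPH_vehicle, where 1 was at 0 throughout, and to 3.40 to 10.7 CPM in BPN_vehicle, where 2 were. Of the 7 macrophage markers, 1 was called higher, the mannose receptor gene Mrc1, and none lower. The part of these cells in the Mmp9 result was not tested.

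Mmp3 lies in a cluster of metalloproteinase genes, and of its neighbours there the 2 that could be tested, Mmp13 and Mmp12, were not called. In chromosome order the cluster runs Mmp13, Mmp12, Mmp1b, Mmp3, Mmp1a, Mmp10, Mmp8, Mmp27, Mmp20 and Mmp7, as listed by RefSeq. Mmp13, which encodes collagenase-3, summed to 273 counts in BPH_vehicle and 296 in BPN_vehicle and was not called, with a log2 difference of -0.32 ± 0.20 (adjusted p = 0.301, edgeR). Mmp12, the macrophage elastase gene, summed to 57 counts in BPH_vehicle and 59 in BPN_vehicle (-0.55 ± 0.54, adjusted p = 0.543). Mmp1b, Mmp1a, Mmp10 and Mmp7 had 0 counts in both vehicle groups, which allows at most 3 counts per library for counting error alone. Mmp8, the neutrophil collagenase gene, was under the filter on low counts and was not tested. It summed to 32 counts in BPH_vehicle, where 6 of the 7 libraries held counts, and to 1 count in BPN_vehicle, where 6 of 7 held none, and on Cmpd17b to 29 counts in BPH_Cmpd17b and 10 in BPN_Cmpd17b. On either side of the cluster, Dcun1d5 averaged 38.5 CPM in BPH_vehicle and 40.98 in BPN_vehicle, and Tmem123 averaged 45.8 CPM in BPH_vehicle and 46.4 in BPN_vehicle.

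**Figure D2:**
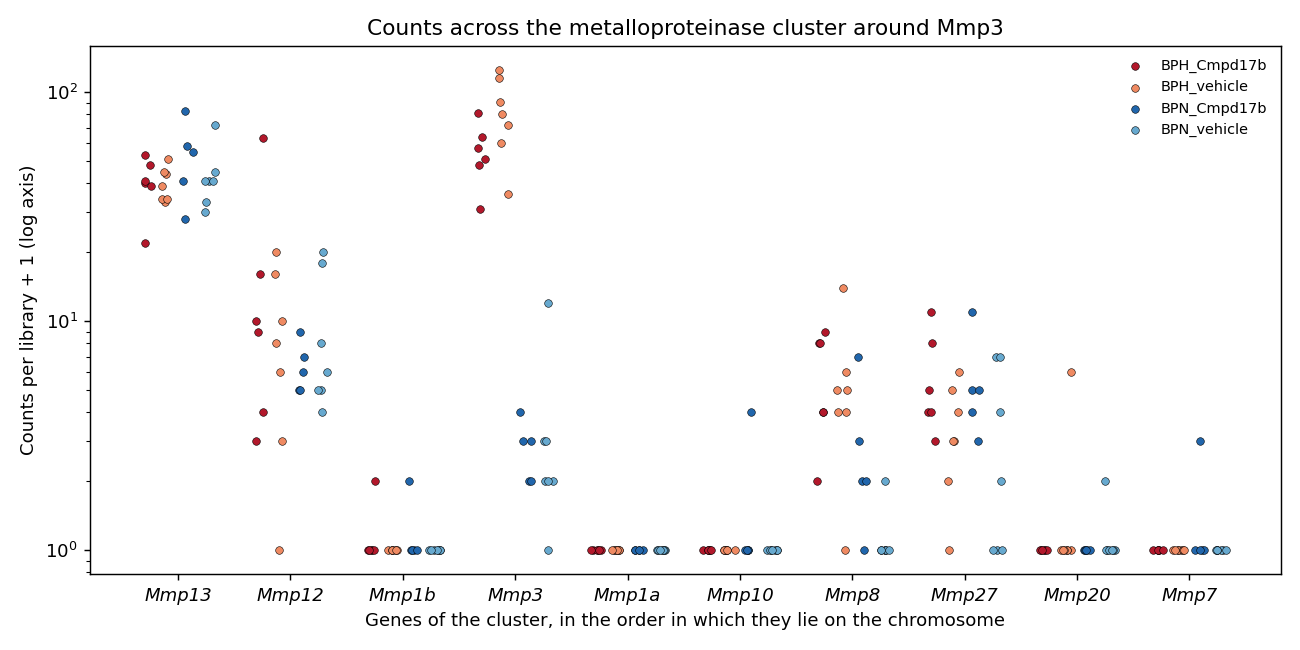
Counts plus 1 per library on a log axis for the 10 metalloproteinase genes of the Mmp3 cluster in chromosome order, with colours for the 4 groups and a point at 1 meaning no counts. Mmp3 holds 30 to 124 counts in BPH/2J libraries and 0 to 11 in BPN/3J libraries, while Mmp13 overlaps between the strains and Mmp1a has none in any library.

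The gelatinase gene Mmp2 and the membrane-type genes Mmp14 and Mmp15 were not called between the vehicle groups. Mmp2 had 38.7 CPM in the lowest, 49.7 in the median and 60.5 in the highest BPH_vehicle library, against 36.3, 38.9 and 57.5 CPM in BPN_vehicle. The groups overlapped, and the highest BPN_vehicle library was replicate 7. The log2 difference was 0.21 ± 0.12 (adjusted p = 0.264, edgeR). Mmp14 had 20.1, 30.2 and 36.1 CPM in BPH_vehicle and 16.7, 22.04 and 38.9 CPM in BPN_vehicle, again with replicate 7 at the top of BPN_vehicle, and a difference of 0.32 ± 0.21 (adjusted p = 0.331). Without BPN_vehicle replicate 7 and BPH_Cmpd17b replicate 6, an alternative chosen after seeing the data, both were called higher in BPH/2J, Mmp2 by 0.30 (adjusted p = 0.0046) and Mmp14 by 0.48 (adjusted p = 0.00429). Neither was called with any single library of the vehicle groups left out, with adjusted p of at least 0.0511 for Mmp2 and 0.0786 for Mmp14 by edgeR. Limma voom called both genes too, Mmp2 by 0.31 (adjusted p = 0.0125) and Mmp14 by 0.52 (adjusted p = 0.00678). Its library weights, estimated from these same counts, were lowest for the same pair of libraries, so its calls are not a separate check. Mmp15, whose product is bound to the membrane like MMP14, differed by 0.09 ± 0.10 (adjusted p = 0.609, edgeR). Its libraries spanned 74.97 to 101.3 CPM in BPH_vehicle and 60.9 to 98.2 CPM in BPN_vehicle.

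None of the 4 inhibitors was called between the vehicle groups by edgeR or DESeq2, none had an unadjusted p under 0.05 by edgeR, and limma voom called 1. Timp1, an inhibitor gene often induced in fibrosis, had 1.46 CPM in the lowest, 3.16 in the median and 3.33 in the highest BPH_vehicle library, against 0.723, 1.02 and 4.03 CPM in BPN_vehicle. In 5 of 7 BPH_vehicle libraries Timp1 lay above 3 CPM, and so it did in 2 of 7 BPN_vehicle libraries, replicates 3 and 7. The log2 difference was 0.53 ± 0.59 (adjusted p = 0.602). It was called in batch 2 alone, with 2 libraries in each strain (1.94, adjusted p = 0.000632), and not in batch 1 alone (0.33, adjusted p = 0.651), and limma voom called it (1.40, adjusted p = 0.0132). Timp2 was the most even member, with -0.01 ± 0.06 and an interval from -0.14 to 0.13. Its libraries ran from 66.3 to 81.2 CPM in BPH_vehicle and from 64.8 to 78.7 CPM in BPN_vehicle. Timp3 differed by 0.05 ± 0.13 and Timp4 by 0.37 ± 0.21 (adjusted p = 0.855 and 0.239). Timp3 spread widely within BPN_vehicle, from 96.0 to 219 CPM, against 145 to 175 CPM in BPH_vehicle.

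The strains were compared again in mice on Cmpd17b, to see whether the differences were present under the drug. Mmp3 was the 1 member called of 9, where 14.1% of all genes tested were called, 7.48% higher and 6.65% lower. It had 1.03 CPM in the lowest, 1.52 in the median and 2.01 in the highest BPH_Cmpd17b library. In the 5 BPN_Cmpd17b libraries it had 0.0256, 0.0347, 0.0539, 0.0577 and 0.0913 CPM. The groups lay apart, as they did for 12.6% of the genes tested. The log2 difference was 4.84 ± 0.54 (adjusted p = 7.94e-08, edgeR), with 1.57 ± 0.377 CPM in BPH_Cmpd17b (SD, n = 6) and 0.0527 ± 0.0254 CPM in BPN_Cmpd17b (SD, n = 5), and 326 and 9 counts in sum. In batch 1 alone, the batch that holds both groups, it was 4.85 (adjusted p = 3.36e-07), and it was called in all 21 alternatives computed.

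Of the other members on Cmpd17b, Mmp9, Timp1 and Timp3 came closest to a call. Mmp9 had 0.49, 0.761 and 1.199 CPM in the lowest, median and highest BPH_Cmpd17b library, against 0.173, 0.277, 0.487, 0.578 and 0.701 CPM in BPN_Cmpd17b. The groups overlapped, with 3 of 6 BPH_Cmpd17b libraries above every BPN_Cmpd17b library, and the log2 difference was 0.87 ± 0.36 (adjusted p = 0.118, edgeR). The difference between the strain effects with and without drug is the interaction given below, which was not called for Mmp9. Timp3, whose product stays in the matrix, had 133, 160 and 242 CPM in BPH_Cmpd17b, against 118, 119, 120, 142 and 157 CPM in BPN_Cmpd17b. In 4 of 6 BPH_Cmpd17b libraries Timp3 lay above every BPN_Cmpd17b library, and the difference was 0.39 ± 0.15 (adjusted p = 0.0791). Without the pair of libraries that stood apart Timp3 was called, at 0.41 (adjusted p = 0.0398). With single libraries left out the Timp3 difference was smallest, at 0.26, without BPH_Cmpd17b replicate 5, the library at 242 CPM. Over these single-library fits its adjusted p by edgeR ran from 0.0491 to 0.253.

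Timp1 on Cmpd17b rested on 1 library. It had 2.10, 2.90 and 36.9 CPM in the lowest, median and highest BPH_Cmpd17b library, against 0.436, 1.18, 1.19, 1.85 and 2.91 CPM in BPN_Cmpd17b. BPH_Cmpd17b replicate 6 held the 36.9 CPM, and the next library of that group held 2.96 CPM. The log2 difference of 1.69 ± 0.73 (adjusted p = 0.147, edgeR) became 0.78 (adjusted p = 0.288) without replicate 6. Mmp14 (0.42 ± 0.25), Timp4 (0.34 ± 0.24), Mmp2 (0.16 ± 0.14), Mmp15 (0.03 ± 0.12) and Timp2 (-0.04 ± 0.07) were not called, with adjusted p from 0.308 to 0.929. Without the 2 libraries Mmp14 differed by 0.16 and Mmp2 by 0.02.

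Cmpd17b was not seen to change any of the 9 genes in either strain. EdgeR called 0 of 15543 genes in BPH/2J, in BPN/3J and for the difference of the 2 effects, so the share of genes called was 0% in each, and 287, 1506 and 595 genes had an unadjusted p under 0.05, none of them a member. The 2 treatments overlapped in every member in both strains, while 0.0772% of the genes tested lay apart in BPH/2J and 0.341% in BPN/3J. DESeq2 called 1 gene in BPN/3J and 0 in the other 2 comparisons, and limma voom called 0 in all 3. In BPH/2J, Mmp3 averaged 1.57 ± 0.377 CPM on Cmpd17b (SD, n = 6) and 2.29 ± 0.926 CPM on vehicle (SD, n = 7), with overlapping libraries and a log2 difference of -0.56 ± 0.33. Its interval, from -1.24 to 0.12, holds both lower levels and no change. Timp1 differed by 1.10 ± 0.61 in BPH/2J, and by -0.25 without replicate 6. The interval of Timp2 in BPH/2J ran from -0.16 to 0.12 and that of Mmp15 from -0.22 to 0.23. Mmp2 differed by -0.01 (interval -0.28 to 0.25), Mmp9 by -0.12 (-0.77 to 0.53), Mmp14 by 0.19 (-0.27 to 0.64), Timp3 by 0.06 (-0.21 to 0.34) and Timp4 by -0.24 (-0.69 to 0.20).

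In BPN/3J, the matrix-bound inhibitor gene Timp3 was the member nearest to a difference. It had 118, 119, 120, 142 and 157 CPM on Cmpd17b, against 96.0, 157 and 219 CPM in the lowest, median and highest vehicle library. The groups overlapped, and the log2 difference was -0.28 ± 0.14 with an interval from -0.57 to 0.02 (adjusted p = 0.537, edgeR). All 5 BPN_Cmpd17b libraries were in batch 1, so the batch term rests on the other groups there, and in batch 1 alone Timp3 differed by -0.31 (adjusted p = 0.393). Timp4 differed by -0.21 (interval -0.70 to 0.28), Mmp9 by 0.33 (-0.42 to 1.09), Mmp14 by 0.08 (-0.41 to 0.57), Mmp15 by 0.07 (-0.17 to 0.30), Mmp2 by 0.04 (-0.25 to 0.32) and Timp2 by 0.01 (-0.14 to 0.16). Mmp3 (-0.64 ± 0.70) and Timp1 (-0.06 ± 0.67) were the least well bounded. Between the strains the effects differed by 0.34 ± 0.19 for Timp3, 1.16 ± 0.93 for Timp1, -0.45 ± 0.48 for Mmp9 and 0.08 ± 0.57 for Mmp3, each with an adjusted p of 0.917 or more by edgeR.

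**Figure D3:**
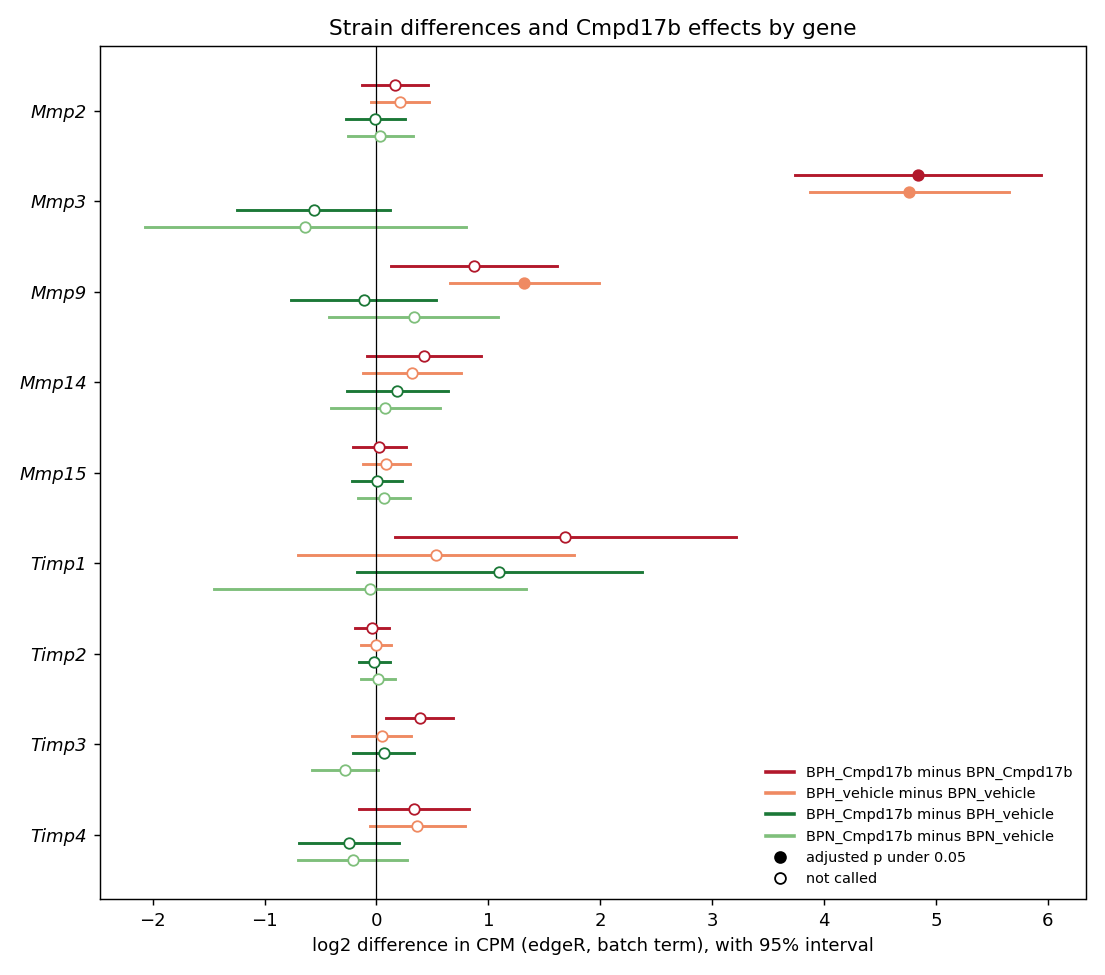
Log2 differences of the 9 genes with 95% intervals for both strain comparisons and both Cmpd17b effects, with filled points for an adjusted p under 0.05 by edgeR. Mmp3 is filled in both strain comparisons, near 4.8, and Mmp9 under vehicle, while every Cmpd17b interval includes 0 and those of Timp2 and Mmp15 are the narrowest.

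BPH_Cmpd17b replicate 6 stood far above the rest of its group in Timp1, as given above, and in Mmp2 and Mmp14. Mmp2 stood at 71.7 CPM there, against 39.6 to 46.2 CPM in the other 5 BPH_Cmpd17b libraries, and Mmp14 at 71.1 CPM, against 22.7 to 30.9 CPM. Mmp15 was lowest there at 56.9 CPM. The same library held 305 CPM of Col1a1, a chain of type I collagen, 746 CPM of Col3a1, 506 CPM of the matricellular gene Postn and 2546 CPM of the natriuretic peptide gene Nppa, against 40.3 to 60.7, 102 to 161, 29.3 to 45.95 and 453 to 726 CPM in the other 5. Syn1, the gene within which Timp1 lies, stood at 0.407 CPM in it, inside the 0.282 to 0.548 CPM of its group. In batch 2 alone, where it is the lone Cmpd17b library and is assumed to vary like the others, the Cmpd17b effect in BPH/2J was 3.55 for Timp1 (adjusted p = 6.65e-05) and 1.39 for Mmp14 (adjusted p = 0.0154). In batch 1 alone, with 5 libraries in each group, these were -0.05 and -0.20 (adjusted p = 1 for both). Cell markers and RNA makeup moved with these values. In BPH_Cmpd17b replicate 6 the cardiomyocyte markers summed to 47920 CPM, the lowest of the 25 libraries, against 64350 to 66078 CPM in the rest of its group, and the mitochondrial share was the lowest, at 26.2% against 34.2% to 37.7%. The sums of its atrial markers (2550 CPM, against 457 to 731 CPM), its valve and tendon markers (51.0 against 16.8 to 22.99 CPM) and its macrophage markers (179.5 against 112.4 to 165.6 CPM) were the highest of the 25. Nppa is 1 of the 4 atrial markers and made up 2546 of the 2550 CPM, so that sum repeats the Nppa value. Its fibroblast markers summed to 1504 CPM, inside the 1367 to 1637 CPM of its group. Col1a1, raised in this library, is among them, so the even sum does not mean that each marker was even.

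In BPN_vehicle replicate 7, Mmp2 reached 57.5, Mmp14 38.9 and Timp3 219 CPM. Summed markers of several cell types were the highest of the 25 libraries in it. Those of endothelial cells stood at 1163 CPM, against 439 to 567 CPM in the rest of its group, those of fibroblasts at 2788 against 1627 to 2133 CPM, and those of smooth muscle and pericytes at 1013 against 521 to 742 CPM. Mast cell (22.4 against 6.50 to 10.6 CPM), epicardial (13.4 against 4.55 to 7.05 CPM) and erythroid markers (2417 against 692 to 1682 CPM) were highest there too, and the mitochondrial share, at 38.7% against 29.4% to 35.9%, was the highest of all. The part of these cells and of RNA quality in the values of either library was not tested.

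Of all pairs of members, Mmp2 and Mmp14 had the highest correlation from mouse to mouse. After removing group and batch, their log2 CPM correlated over the 25 libraries with Pearson's r = 0.88 and Spearman's rho = 0.80 (permutation within group and batch, p = 0.00235 and 0.0048, two-sided), and r was 0.73 without the 2 libraries farthest out in Mmp2. Adjusted over the 36 pairs of members, these p-values were 0.0846 and 0.0576, and 0 pairs passed 0.05 on both. Replicate 6 is alone in its group and batch and cannot be moved by that permutation. With permutation within groups alone, a scheme chosen after the first result was seen, 4 of the 36 pairs passed: Mmp2 with Mmp14, Mmp2 with Timp1, Mmp14 with Timp1 and Mmp2 with Timp2, with adjusted p of r between 0.00288 and 0.0268. Without the 2 farthest libraries r was 0.52 for Mmp2 with Timp1, 0.55 for Mmp14 with Timp1 and 0.43 for Mmp2 with Timp2. Mmp3 and Mmp9, both called between strains under vehicle, gave r = 0.06 with each other (rho 0.09, permutation p = 0.78 and 0.731).

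Genes averaging 1 or more on the log2 CPM scale, 11544 in all, were searched, and those most like each member over the 25 libraries are given as a description. Without adjustment for group, Mmp2 was most like Col6a1, Loxl1 and Mmp14 (r = 0.90, 0.88 and 0.88, and 0.81, 0.80 and 0.79 without BPH_vehicle replicate 3 and BPH_Cmpd17b replicate 6), that is, a chain of type VI collagen, an elastin and collagen cross-linking oxidase and the membrane-type enzyme. Mmp14 was most like Col5a2, Fbn1 and Adamts2 (r = 0.91, 0.89 and 0.89, and 0.84, 0.80 and 0.74 without BPH_Cmpd17b replicate 6 and BPN_vehicle replicate 7), the last of which encodes a procollagen-processing enzyme. Timp1 was most like Medag, Cilp and Postn (r = 0.93, 0.90 and 0.90), and with BPH_Cmpd17b replicate 6 and BPN_Cmpd17b replicate 4 left out these were 0.87, 0.80 and 0.81. Timp3 was most like the clock gene Per2, at r = 0.81, and at r = 0.86 after group and batch were removed (0.83 without the 2 farthest libraries). Per2 had 18.95 CPM in BPH_Cmpd17b replicate 5 and 23.5 CPM in BPN_vehicle replicate 7, the 2 libraries with the most Timp3, at 242 and 219 CPM. Per2 had 5.38 to 17.9 CPM in the other 23 libraries. Mmp3 was most like Snhg18 and Alad (r = 0.97 for both), whose likeness spans the gap between strains, as Snhg18 had 7.47 to 11.2 CPM in BPH/2J and 1.66 to 3.34 CPM in BPN/3J. Mmp9 was most like Asah2, Ncam1 and Mr1 (r = 0.80, 0.80 and 0.79). Timp2 was most like Ldlrad4 (0.82), Mmp15 like Vars2 (0.86, and 0.77 without BPH_Cmpd17b replicate 6 and BPN_vehicle replicate 7) and Timp4 like Hpf1 (0.69).

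**Figure D4:**
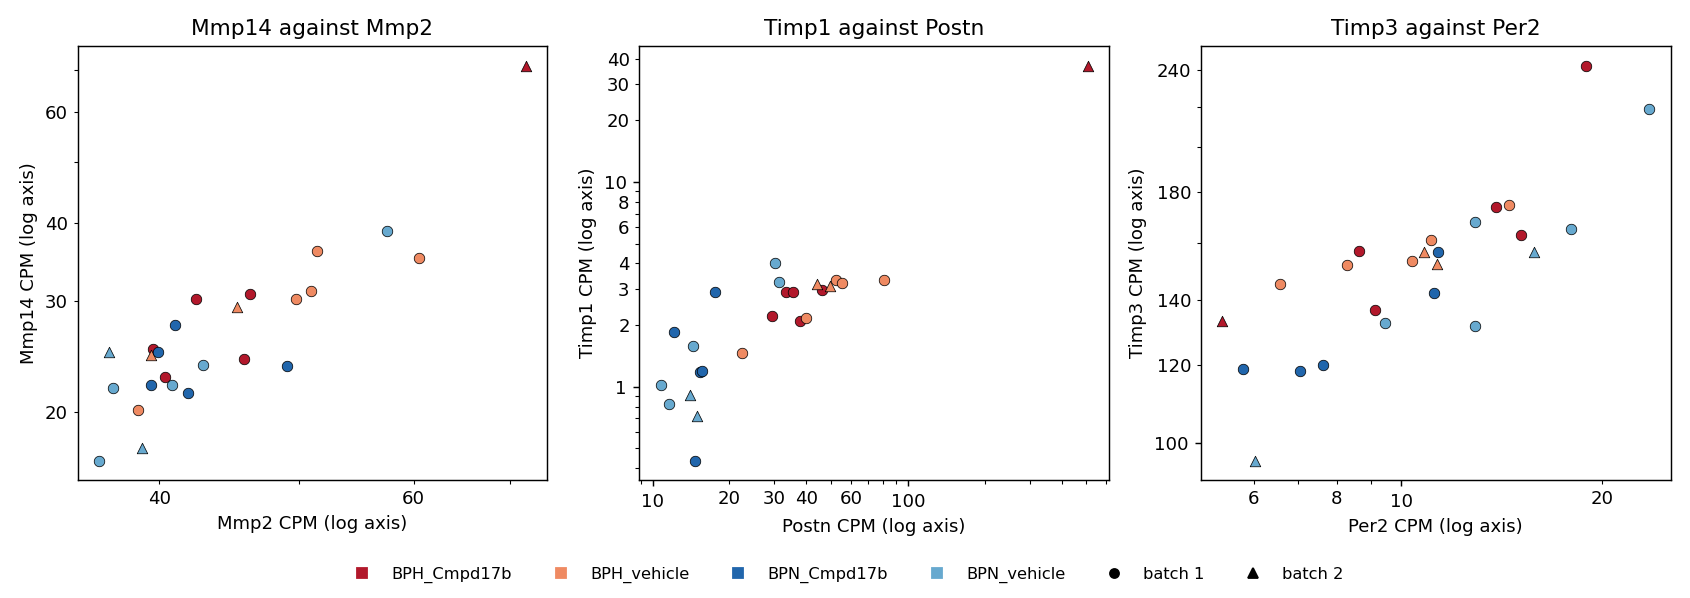
TMM-scaled CPM on log axes in 25 libraries for Mmp14 against Mmp2, Timp1 against Postn and Timp3 against Per2, with colours for groups and shapes for batches. The red triangle, BPH_Cmpd17b replicate 6, lies at the upper right of the first and second panels, with 71.1 CPM of Mmp14 and 36.9 CPM of Timp1, and Timp3 is highest where Per2 is high.

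Elsewhere in the metalloproteinase family, Mmp25 and Mmp28 were lower in BPH/2J under vehicle and none was called higher. Of 18 further Mmp genes 9 could be tested, and the 2 called are 22.2% of these, near the 18.9% over all genes tested. The median log2 difference was -0.32, against 0.00 over all genes tested, and 0.03 without BPN_vehicle replicate 7. Mmp25, whose product is tethered to the membrane of leukocytes by a lipid anchor, had 0 CPM in the lowest, 0.0525 in the median and 0.138 in the highest BPH_vehicle library, against 0.247, 0.759 and 1.01 CPM in BPN_vehicle. The groups lay apart (-3.50 ± 0.48, adjusted p = 2.7e-06, edgeR), and on Cmpd17b they did too (-2.19 ± 0.51, adjusted p = 0.00321). Mmp28, which encodes epilysin, averaged 0.921 ± 0.141 CPM in BPH_vehicle and 2.55 ± 1.09 CPM in BPN_vehicle (SD, n = 7 each), again with no overlap (-1.44 ± 0.23, adjusted p = 2.79e-05). On Cmpd17b it stayed lower (-1.08 ± 0.26, adjusted p = 0.00406), and Mmp23 was called higher (0.65 ± 0.22, adjusted p = 0.0421). BPH_Cmpd17b replicate 6 held 11.5 CPM of Mmp23, against 4.52 to 6.53 CPM in the other 5 libraries of its group, and without it the difference was 0.48 ± 0.19 and not called (adjusted p = 0.102). Without this library and BPN_vehicle replicate 7 together, Mmp23 was called higher both under vehicle and on Cmpd17b.

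Among 18 activators and cofactors of metalloproteinases, 14 were tested, and 2 were lower and 0 higher in BPH/2J under vehicle, or 14.3%, beside 18.9% of all genes tested. They were Plau, the urokinase gene whose product makes plasmin, with 4.05 ± 0.732 CPM in BPH_vehicle and 6.91 ± 1.96 CPM in BPN_vehicle (-0.77 ± 0.15, adjusted p = 0.00044, edgeR), and Cd44, a receptor that can dock MMP9 (-0.60 ± 0.20, adjusted p = 0.0348). Without BPN_vehicle replicate 7 Cd44 was not called (-0.53 ± 0.21, adjusted p = 0.0754), and without BPH_Cmpd17b replicate 6 as well it was called lower again. On Cmpd17b neither was called, and both were called lower there without BPH_Cmpd17b replicate 6. There the integrin chain Itgb3 was higher (1.02 ± 0.27) and the proprotein convertase Pcsk6 lower (-0.27 ± 0.08), with adjusted p of 0.00956 and 0.0263, and Pcsk6 was not called without BPH_Cmpd17b replicate 6 (adjusted p = 0.0561). Furin, the convertase that activates MMP14, differed by 0.04 under vehicle (adjusted p = 0.83), and Bsg, which encodes the inducer of metalloproteinases basigin, by -0.09 (adjusted p = 0.517).

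Of 16 other inhibitors and clearance genes 13 were tested, and under vehicle 2 were higher and 2 lower in BPH/2J, or 30.8% called, beside 18.9% of all genes tested. Thbs2, a thrombospondin that takes part in the uptake of MMP2 through LRP1, averaged 31.2 ± 1.81 CPM in BPH_vehicle and 20.7 ± 4.19 CPM in BPN_vehicle (0.60 ± 0.11, adjusted p = 0.000133, edgeR), with no overlap. Serpine2, an inhibitor of thrombin and plasminogen activators, was also higher (0.43 ± 0.11, adjusted p = 0.00512). Both were called on Cmpd17b as well (0.49 ± 0.12 and 0.56 ± 0.13). Rarres1 was lower under vehicle (-1.39 ± 0.38, adjusted p = 0.00822), with -0.85 ± 0.32 without BPN_vehicle replicate 7 (adjusted p = 0.0498) and -0.83 with 23 libraries (adjusted p = 0.0539), and so was Pzp (-2.49 ± 0.66, adjusted p = 0.00841), a plasma protease inhibitor made by liver. BPN_vehicle replicates 1, 2 and 4 held 329, 520 and 60.9 CPM of summed liver markers, against 0.497 to 4.04 CPM in BPH_vehicle, and the part of that RNA in the Pzp value was not tested. Reck, a membrane-anchored inhibitor of metalloproteinases, differed by 0.01 under vehicle (adjusted p = 0.958) and the receptor gene Lrp1 by 0.19 (adjusted p = 0.34).

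The other metalloproteinases of matrix and cell surface had 4 of 21 members higher and 0 lower in BPH/2J under vehicle, or 19.05%, beside 18.9% of all genes tested. Mme, which encodes neprilysin and degrades natriuretic peptides, averaged 13.4 ± 0.841 CPM in BPH_vehicle and 8.81 ± 1.33 CPM in BPN_vehicle (0.61 ± 0.10, adjusted p = 5.4e-05, edgeR) and did not overlap. The sheddase genes Adam10 (0.32 ± 0.07) and Adam17 (0.30 ± 0.07) and the versican-cleaving enzyme gene Adamts15 (0.68 ± 0.19) had adjusted p of 0.000553, 0.00176 and 0.0102. On Cmpd17b Adam10 was called again (0.27 ± 0.08, adjusted p = 0.014), and the other 3 were not in the fit of 25 libraries. Mme was called there without BPH_Cmpd17b replicate 6, without BPN_vehicle replicate 7 and without both. Under vehicle 5, 5 and 6 of the 21 were called higher in those fits and 0 lower. Of all genes tested, 9.79%, 11.7% and 12.5% were called higher under vehicle in them.

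Of 29 matrix substrates all were tested, and 4 were higher and 0 lower in BPH/2J under vehicle, or 13.8%, where 9.16% of all genes tested were called higher, with a median log2 difference of 0.17. Col6a3, a chain of type VI collagen, averaged 23.6 ± 5.17 CPM in BPH_vehicle and 10.9 ± 2.71 CPM in BPN_vehicle (1.12 ± 0.23, adjusted p = 0.000729, edgeR), with no overlap. Col3a1 (1.02 ± 0.32), Fbn1 (0.74 ± 0.24) and Vcan (0.64 ± 0.19) had adjusted p between 0.0176 and 0.0309. This count moved with single libraries: 10 of the 29 were called higher without BPH_Cmpd17b replicate 6, 7 without BPN_vehicle replicate 7 and 14 without both, with medians of 0.17, 0.25 and 0.24 and none lower. Of all genes tested, 9.79%, 11.7% and 12.5% were called higher in those fits.

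On Cmpd17b 4 of the 29 matrix substrates were higher and 0 lower, beside a share of 7.48% called higher over the whole table. They were Col6a3, the matricellular genes Postn and Sparc, and Vcan, the gene of the proteoglycan versican. BPH_Cmpd17b replicate 6 was the highest library for Col6a3, Postn and Vcan, and it moved the values. Postn differed by 2.13 ± 0.64 with it and by 1.27 ± 0.30 without it (adjusted p = 0.0283 and 0.00483, edgeR), and Vcan by 0.70 ± 0.22 and 0.42 ± 0.13 (adjusted p = 0.034 and 0.0359). Col6a3 differed by 0.96 ± 0.26 with it and 0.69 ± 0.19 without it, and Sparc by 0.83 ± 0.23 and 0.59 ± 0.17. Both were called each time. The median over the 29 genes was 0.46 with replicate 6 and 0.17 without it.

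Some markers of other cell types were called between strains, where 18.9% of all genes tested were called under vehicle and 14.1% on Cmpd17b. Under vehicle 0 of 6 endothelial, 0 of 6 smooth muscle and pericyte and 0 of 5 mast cell markers tested were called. The same held for 0 of 3 adipocyte, 0 of 5 erythroid and 0 of 6 kidney markers, while 4 of 4 liver markers were lower in BPH/2J. Of the valve and tendon markers 3 of 5 tested, Wif1, Scx and Fmod, were higher in BPH/2J under vehicle, and the 8 markers summed to 17.2 to 31.6 CPM in BPH_vehicle and 11.4 to 16.7 CPM in BPN_vehicle. On Cmpd17b the sums were 16.8 to 51.0 CPM in BPH_Cmpd17b and 9.498 to 13.5 CPM in BPN_Cmpd17b. Of the 4 atrial markers 2 were tested. Myl4 was called higher under vehicle (2.39 ± 0.76, adjusted p = 0.0315, edgeR), with 127 CPM in BPH_vehicle replicate 7 and 2.63 to 5.80 CPM in the other 6 libraries, against 1.195 to 4.46 CPM in BPN_vehicle. Nppa was called higher on Cmpd17b, by 2.12 ± 0.47, or 1.75 ± 0.39 without BPH_Cmpd17b replicate 6. The 4 atrial markers summed to 457 to 2550 CPM in BPH_Cmpd17b and 78.5 to 204 CPM in BPN_Cmpd17b, and to 329 to 1101 CPM in BPH_vehicle and 170 to 878 CPM in BPN_vehicle. In BPH_Cmpd17b nearly all of the sum was Nppa.

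Of 8 fibroblast markers Pcolce2 was higher and Gsn lower in both comparisons, and the 8 summed to 1343 to 1684 CPM in BPH_vehicle and 1627 to 2788 CPM in BPN_vehicle. Under vehicle, Dpt, Pdgfra and the smooth muscle and pericyte genes Myh11 and Rgs5 were also called higher without BPN_vehicle replicate 7. They stayed so without BPH_Cmpd17b replicate 6 as well, where Col1a1 and the endothelial gene Emcn joined them. Of all genes tested, 24.2% and 25.8% were called in these fits. Without BPH_Cmpd17b replicate 6 alone, the pericyte gene Pdgfrb, the macrophage gene C1qb and the cardiomyocyte gene Tnni3 were also called lower under vehicle. Dpt and the tendon gene Thbs4 were also called higher there, where 20% of all genes tested were called. Pdgfrb, C1qb and Tnni3 were not called without both libraries. The epicardial markers Krt19 and Msln, 2 of 4 tested, were lower in BPH/2J under vehicle, and without BPN_vehicle replicate 7 Msln had too few counts to be tested. On Cmpd17b the smooth muscle gene Myh11 was higher (0.62 ± 0.20, adjusted p = 0.0405, edgeR, and 0.0786 without BPH_Cmpd17b replicate 6) and the macrophage gene Cd163 lower (-0.51 ± 0.15, adjusted p = 0.0231). The cardiomyocyte gene Tnnt2 was lower under vehicle (-0.26 ± 0.08, adjusted p = 0.028). The part of these cells in the enzyme differences was not tested.

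Several members share their place in the genome with another gene, by the RefSeq listing. Timp1 lies within Syn1, Timp3 within Syn3 and Timp4 within Syn2, the synapsin genes, and Cep295nl lies within Timp2. The sources used here do not give the strand setting of the authors' counting, so counts of such pairs may be split between the genes. Syn2 was called higher in BPH/2J under vehicle, with 1.43 ± 0.370 CPM in BPH_vehicle and 0.648 ± 0.237 CPM in BPN_vehicle (SD, n = 7 each; 1.18 ± 0.24, adjusted p = 0.000643, edgeR), while Timp4, at 21.7 ± 4.33 and 16.7 ± 4.79 CPM in the same groups, was not. Syn1 was called higher on Cmpd17b, with 0.398 ± 0.122 CPM in BPH_Cmpd17b and 0.154 ± 0.0536 CPM in BPN_Cmpd17b (1.44 ± 0.45, adjusted p = 0.028, edgeR, and 0.0506 without BPH_Cmpd17b replicate 6). Syn3 stood at 0.677 ± 0.386 CPM in BPH_vehicle and 0.684 ± 0.148 CPM in BPN_vehicle.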

How the data were processed

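Left ventricles of BPH/2J and BPN/3J mice were profiled by polyadenylated RNA sequencing, and 25 of 26 libraries were used. The submitters' processing notes name Trim Galore 0.6.7, STAR 2.7.9a and the GRCm39 (mm39) build, and the sources used here give no counting program, annotation or strand setting. The values deposited by the authors are expected counts per gene, of which 93.3% are whole, and they were rounded. Libraries held 25476128 to 48648200 counts. Samples were grouped by the strain, treatment and batch of the labels, and replicates were numbered in sample order.

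Counts were fitted in 1 model of 4 groups and batch with edgeR 4.0.16 (R 4.3.3; TMM, filterByExpr, robust quasi-likelihood F-test), with Benjamini-Hochberg adjustment over 15543 genes and a threshold of 0.05, and the fit was tested on simulated data. DESeq2 1.42.0, limma 3.58.1 (voom with quality weights), other normalization, filters, batch terms and library sets were alternatives. The gene lists were also fitted without the 2 libraries that stood apart, an alternative chosen after seeing the data. Correlations used log2 CPM with a prior count of 2. Nothing in the labels says more of how samples were taken, so p-values measure the spread between these samples. The 9 members and all gene lists were chosen with earlier results of these data known. Named genes are all members, and of each list up to 6 of the genes called with the smallest adjusted p. Furin, Bsg, Reck and Lrp1 were added for their roles, and the collagen, Postn and Nppa values of single libraries after they were seen. The library labelled BPH_Cmpd17b replicate 7 was left out for its kidney markers.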

Additional observations from a re-analysis of the deposited data

Results flagged for a closer look

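Single libraries stood far from the rest of their group in 9 of 36 sets of member and group, and chance alone marks about 1 in 20 such groups. The 36 sets share the same 25 libraries and are not independent, so the 9 were not tested against that rate. BPH_Cmpd17b replicate 6 was the high library for Mmp2 (71.7 CPM), Mmp14 (71.1 CPM) and Timp1 (36.9 CPM). BPN_vehicle replicate 7 was the high library for Mmp2 (57.5 CPM), Mmp14 (38.9 CPM) and Mmp3 (0.346 CPM). BPH_Cmpd17b replicate 5 was the high library for Timp3 (242 CPM) and Timp4 (34.7 CPM), and BPN_Cmpd17b replicate 1 for Mmp2 (49.03 CPM). The left-out library held 2241 unscaled CPM of Timp3, against at most 224.5 in the other 25, and Timp3 was the 1 member that was higher in it than in every other library.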

How the results depend on the processing

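Mmp3 stayed called higher in BPH/2J under vehicle in all 25 alternatives (4.34 to 6.85) and on Cmpd17b in all 21 (4.52 to 5.10), and Mmp9 under vehicle in 23 of 24 (1.07 to 2.20), with batch 2 alone ending its call. A filter of 1 CPM in 5 libraries removed Mmp9, which left 1 member called under vehicle. Limma voom called 5 members under vehicle and 23 libraries called 4, and on Cmpd17b 2 were called without the batch term and 2 with 23 libraries, against 1 to 2 with single libraries left out, the second being Timp3 at 0.45 (adjusted p = 0.0491, edgeR) without BPH_Cmpd17b replicate 2. Batch 2 alone called 2 members and 122 genes for Cmpd17b in BPH/2J, from 1 library on Cmpd17b. Over all genes, 2936 were called under vehicle, against 1492 with all 26 libraries and 1130 in batch 2 alone, and 2197 on Cmpd17b, against 1195 with all 26 libraries and 3405 with limma voom, and DESeq2 called 1 for Cmpd17b in BPN/3J. Without the batch term Timp1 on Cmpd17b was 2.46 (adjusted p = 0.0306, edgeR). The following log2 values had the opposite sign to the values reported, none of them called, and the cause was not tested. With all 26 libraries, the strain difference under vehicle was 0.00 for Timp3, the strain difference on Cmpd17b was -0.15 for Mmp15, the Cmpd17b effect in BPH/2J was -0.28 for Mmp15, the Cmpd17b effect in BPN/3J was -0.04 for Mmp2, -0.03 for Mmp15, -0.05 for Timp2, the difference of effects was -0.14 for Mmp3. With limma voom, the strain difference under vehicle was 0.01 for Timp2, the Cmpd17b effect in BPH/2J was -0.07 for Mmp14, the Cmpd17b effect in BPN/3J was 0.65 for Mmp3, -0.01 for Mmp15, 0.47 for Timp1, 0.00 for Timp4, the difference of effects was -1.11 for Mmp3, -0.26 for Mmp14, 0.06 for Mmp15, -0.25 for Timp1. With no filter on low counts, the strain difference under vehicle was 0.00 for Timp2. Without the batch term, the strain difference on Cmpd17b was -0.02 for Mmp15. In batch 1 alone, the strain difference under vehicle was -0.06 for Timp3, the Cmpd17b effect in BPH/2J was -0.20 for Mmp14, -0.05 for Timp1, the Cmpd17b effect in BPN/3J was -0.02 for Mmp2, -0.04 for Mmp14, -0.02 for Timp2, the difference of effects was -0.16 for Mmp14, 0.06 for Mmp15. In batch 2 alone, the strain difference under vehicle was 0.06 for Timp2, the Cmpd17b effect in BPH/2J was 0.75 for Mmp2, -0.50 for Mmp15, 0.19 for Timp2, -0.22 for Timp3. With only the groups compared in the fit, the Cmpd17b effect in BPN/3J was -0.03 for Mmp2, -0.05 for Mmp14, -0.02 for Timp2. With 23 libraries, the strain difference under vehicle was 0.01 for Timp2, the Cmpd17b effect in BPH/2J was -0.17 for Mmp14, -0.21 for Timp1, the Cmpd17b effect in BPN/3J was 0.49 for Mmp3, the difference of effects was -0.96 for Mmp3, -0.32 for Mmp14, 0.06 for Mmp15, -0.11 for Timp1. With single libraries left out the range was, for the strain difference under vehicle -0.04 to 0.02 (Timp2), -0.04 to 0.14 (Timp3). With single libraries left out the range was, for the strain difference on Cmpd17b -0.03 to 0.10 (Mmp15). With single libraries left out the range was, for the Cmpd17b effect in BPH/2J -0.20 to 0.27 (Mmp14), -0.04 to 0.09 (Mmp15), -0.22 to 0.06 (Mmp2), -0.25 to 0.03 (Mmp9), -0.25 to 1.31 (Timp1), -0.08 to 0.01 (Timp2), -0.06 to 0.12 (Timp3). With single libraries left out the range was, for the Cmpd17b effect in BPN/3J -0.01 to 0.12 (Mmp15), -0.02 to 0.15 (Mmp2), -0.90 to 0.46 (Mmp3), -0.45 to 0.41 (Timp1), -0.02 to 0.04 (Timp2). With single libraries left out the range was, for the difference of effects -0.17 to 0.20 (Mmp14), -0.12 to 0.01 (Mmp15), -0.19 to 0.01 (Mmp2), -1.0 to 0.34 (Mmp3), -0.29 to 0.11 (Timp4). No paired analysis was possible because the replicate numbers follow the order of samples and pair no mice. Depth limits Mmp3 in BPN/3J, with at most 11 counts in a library.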
